A study of Drosophila melanogaster with 9 samples.

Results

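The *dLmo* gene of *Drosophila* (listed as *Bx*) encodes a LIM-only protein, and *EP1306* is a loss-of-function allele of it. Head RNA of *EP1306* mutants was set against that of *w;iso* controls on 3 Affymetrix arrays for each genotype, which are 6 of the 9 arrays of the series. All 18769 probe sets other than the array's own control probe sets were compared, without regard to their values. Of these, 13647 had 1 gene in the array annotation and 30 took a gene name from the study's supplementary annotation, while 402 named several genes and 4690 named none.

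LIM-only proteins have LIM domains, which hold other proteins, and no DNA-binding domain of their own. In flies dLMO binds the LIM-domain-binding cofactor Chip, and it thereby keeps Chip from the LIM-homeodomain factor Apterous in the developing wing. In adult heads the protein is known from neurons that set daily activity and the response to ethanol. The comparison addresses which transcripts differ in level when dLMO function is reduced.

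The *EP1306* flies were adult males carrying the *dLmo* allele *EP1306*, untreated and aged 2 to 3 days per the labels. The *w;iso* flies, called controls below, were untreated adult males of the same age. They were from the *w1118* stock isogenic for chromosomes II and III, to which the mutant lines had been outcrossed. How far the groups share the X chromosome, which carries *Bx*, was not measured. *EP1306* was the only loss-of-function allele on the arrays, and no rescue was measured. The remaining 3 arrays were of *BxJ*, a gain-of-function allele, and they enter the fit to help estimate the spread. The labels describe a single pool of 600 flies per genotype whose RNA was divided into triplicates, while the design text describes 3 groups of 200 heads, so the spread between replicates, and every p-value built on it, may be technical only. Levels are log2 of the array intensity after 16 was added, a difference is *EP1306* minus *w;iso* on that scale, and folds are of the intensity plus 16, which understates the change of dim genes. A probe set was called where limma's adjusted p was below 0.05 over all 18769.

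Single arrays stood apart in genes of other body parts or of females. The photoreceptor genes averaged 11.32 to 11.46 in *EP1306* and 11.34 to 11.44 in *w;iso* over 19 genes, and *repo*, which marks glia, lay between 9.69 and 9.83 in *EP1306* and between 9.75 and 10.002 in *w;iso*, so markers of the head were present on all 6 arrays. A list of 35 male accessory gland genes averaged 6.31 in *EP1306* replicate 1, against 4.91 and 4.82 in the other *EP1306* arrays, and 5.98 in *w;iso* replicate 2, against 4.82 and 4.89 in the other *w;iso* arrays. *Yp1*, a yolk protein of females, was at 4.58, 4.59 and 4.65 in *EP1306* and at 9.06, 4.59 and 4.59 in *w;iso*, so *w;iso* replicate 1 alone carried it. On that array *Yp2* was at 8.07 and *Yp3* at 9.24, against at most 4.61 and 7.80 on the others. The list of 19 female and dosage compensation genes averaged 7.31 there and 6.68 to 6.91 on the others. Whether the sample held female heads was not tested. *fln*, the flight muscle gene flightin, was at 4.61, 4.74 and 8.39 in *EP1306* and at 4.74, 4.63 and 4.57 in *w;iso*, so it was high only in *EP1306* replicate 3. The spike-in controls averaged 9.13, 9.40 and 8.54 in *EP1306* and 9.49, 10.58 and 10.73 in *w;iso*, and the groups did not overlap. Probe sets for 18S ribosomal RNA averaged 10.01, 9.98 and 9.23 in *EP1306* and 12.72, 10.85 and 10.53 in *w;iso*, also without overlap and highest in *w;iso* replicate 1. What these differences contribute to the results was not tested, except where values without an array are given.

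*Bx* itself did not pass the test in *EP1306*. Its brighter probe set was at 7.58, 6.94 and 7.52 in *EP1306* and at 7.85, 7.77 and 7.04 in controls, and the groups overlapped (difference -0.21, 95% interval -0.75 to 0.34, adjusted p = 0.818). Leaving out 1 array moved this difference between -0.46, without control replicate 3, and -0.000405, without *EP1306* replicate 2. The dimmer probe set was at 5.24, 5.27 and 5.26 in *EP1306* and at 5.78, 5.95 and 5.31 in controls, where the third control array lay close to the mutant arrays (difference -0.42, interval -0.81 to -0.03 unadjusted, adjusted p = 0.46). The same probe sets averaged 9.39 and 7.33 in the gain-of-function *BxJ* heads. The arrays therefore gave no called loss of *Bx* RNA in *EP1306*, and the interval of the brighter probe set does not exclude a fall. *Alk*, the receptor tyrosine kinase whose regulation by *dLmo* the study asked about, was at 8.82, 8.88 and 9.26 in *EP1306* and at 8.56, 8.71 and 8.73 in controls. These groups did not overlap, which held for 14.6% of all genes. The *Alk* difference of 0.32 (1.25-fold) did not pass the test over all probe sets (interval 0.06 to 0.58 unadjusted, adjusted p = 0.37), and it was 0.18 without *EP1306* replicate 3. *jeb*, which encodes the ligand of ALK, was dim, at 4.96, 5.001 and 5.11 in *EP1306* and at 5.06, 5.0 and 5.36 in controls (difference -0.12, adjusted p = 0.733). None of the 16 measured genes of the ALK receptor and Ras/ERK cascade was called on its brightest probe set. The same held for the 22 measured genes on the list of dLMO partners and LIM-domain proteins. *Mlp84B*, a LIM protein placed on the muscle list instead, was called lower (difference -0.74, adjusted p = 0.000698). *Lmpt*, a LIM-domain protein of the second list, was called higher on a dimmer probe set (difference 0.56, adjusted p = 0.0135, kept in 6 of the 9 leave-one-out fits) and not on its brightest one (0.086, adjusted p = 0.706). At an unadjusted p below 0.05, the first list had 1 gene higher and 0 lower in *EP1306*, and the second had 0 higher and 2 lower. Of all genes, 4.37% were higher and 7.44% lower at that threshold.

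Across the array, 214 of 18769 probe sets were called (1.14%), with 85 rises (0.453%) and 129 falls (0.687%). Without adjustment, at p below 0.05, the counts were 643 higher (3.43%) and 1197 lower (6.38%), 1840 in all (9.8%). The arrays of *EP1306* and controls did not overlap in any of the 214, and they did not overlap in 12.3% of all probe sets. The median over all probe sets was -0.0086. The called rises were the larger changes, with a median difference of 0.97 and 40 over 2-fold, while the called falls had a median of -0.58 and 32 over 2-fold. Of the 214, 178 named 1 gene (175 genes in all), 7 named several and 29 named none. With the brightest probe set taken for each of 12010 genes, 166 were called (1.38%), 65 higher (0.541%) and 101 lower (0.841%). Of the 178 calls with 1 gene, 67 were also made in each of 9 leave-one-out fits, which each dropped 1 array, and 82 were made in under 5 of them. With the spike-in level as a covariate 27 of the 178 calls were kept, and without the 2 arrays rich in accessory gland RNA 43 were. *Map205*, *CG13551*, *CG16926*, *Fbxl4*, *Arc1*, *jim*, *Mlp84B*, *Jhbp1*, *CG4757*, *kek5*, *BomBc3*, *Cyp6a20*, *plh*, *SkpB*, *CG3857*, *Ugt35B1* and *CG1894* were the 17 called under both. The spike-in level differed between the genotypes without overlap, so that covariate shares much of its variation with genotype. A call can then be lost through a larger standard error, without a smaller difference. The last gene inside the threshold was *CG13796* (difference -0.48, adjusted p = 0.0498) and the nearest outside it was *SmydA-7* (-0.42, adjusted p = 0.0512).

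**Figure D1:**
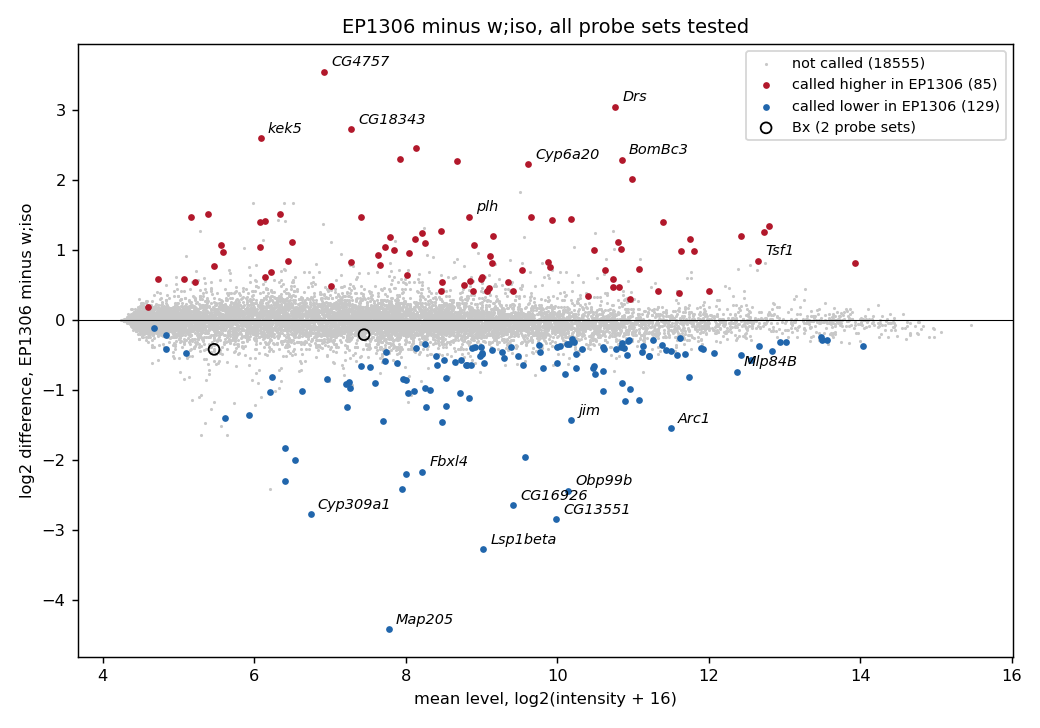
Difference between *EP1306* and *w;iso* (y axis, log2 of the intensity plus 16) against the mean level of both groups (x axis, same scale) for all 18769 probe sets. Red points are the 85 called higher, blue points the 129 called lower and open circles the 2 *Bx* probe sets, which lie among the uncalled points. *Map205* is the lowest point and *CG4757* the highest.

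The largest called change was the loss of *Map205* signal. *Map205* encodes a microtubule-associated protein, and its level was 5.48, 5.33 and 5.89 in *EP1306* and 9.92, 10.12 and 9.92 in controls. The mutant arrays lay within 1 unit of the array medians (5.01 to 5.02) while the control arrays were far above theirs, a difference of -4.42 ± 0.13 (SE), or 21.5-fold lower (adjusted p = 4.75e-06). It was the only called gene of 14 microtubule-associated proteins on the list (7.14%, against 1.38% of all genes), whose median difference was -0.05. In *BxJ* heads *Map205* averaged 9.99, and *EP1306* minus *BxJ* was -4.43 (adjusted p = 4.71e-06).

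A storage protein, an odorant-binding protein and a cytochrome P450 were also among the 6 largest falls of single genes. *Lsp1beta*, a subunit of a larval serum storage protein, was at 7.25, 7.47 and 7.44 in *EP1306* and at 11.39, 10.60 and 9.996 in controls (difference -3.28 ± 0.30, 9.7-fold lower, adjusted p = 0.00207). *Obp99b*, an odorant-binding protein, was at 9.20, 8.84 and 8.75 in *EP1306* and at 11.999, 11.24 and 10.86 in controls (difference -2.44 ± 0.28, adjusted p = 0.00574). *Cyp309a1*, a cytochrome P450, was at 5.37, 5.17 and 5.51 in *EP1306* and at 8.89, 7.99 and 7.53 in controls (difference -2.78 ± 0.32, adjusted p = 0.00574). In each of the 3 genes the groups were far apart, and the highest control array was control replicate 1, the array with yolk protein signal. Without it the differences were -2.91, -2.12 and -2.41, and all 3 stayed called (adjusted p = 0.00139, 0.00641 and 0.00585). They were not called without the 2 arrays rich in accessory gland RNA (adjusted p = 0.0509, 0.0607 and 0.0864), where the differences were -3.24, -2.64 and -2.87. *CG16926* had the same order of arrays, with 8.39, 7.82 and 8.07 in *EP1306* and 11.39, 10.55 and 10.29 in controls (difference -2.65, and -2.33 without that array). The list of 17 fat body and lipid storage genes had no call and a median of 0.01.

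Other falls were large against the spread within each genotype. *CG13551* was at 8.55, 8.58 and 8.56 in *EP1306* and at 11.52, 11.38 and 11.35 in controls, and its difference of -2.85 ± 0.06 had the smallest adjusted p of the named genes (4.04e-07). *Fbxl4*, which encodes an F-box protein with leucine-rich repeats, was at 6.998, 7.15 and 7.25 in *EP1306* and at 9.20, 9.32 and 9.39 in controls (difference -2.17 ± 0.08, 4.5-fold lower, adjusted p = 1.12e-05). *CG1894* was at 8.53, 8.54 and 8.71 in *EP1306* and at 10.75, 10.52 and 10.39 in controls (difference -1.96 ± 0.10). The genes were picked from the largest called falls, so their separation beyond the spread between arrays is no further support. *CG11158* (-1.998) and *CG9150* (-1.83) also fell by more than 3-fold.

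*Arc1* and *jim* were lower in every mutant array than in any control array. *Arc1*, whose protein forms capsids that carry RNA between neurons and muscle and which is known for its response to neuronal activity, was at 10.51, 10.85 and 10.82 in *EP1306* and at 12.42, 12.40 and 11.997 in controls. Its level in *EP1306* was 2.92-fold lower, with a difference of -1.55 ± 0.13 (adjusted p = 0.00161). *jim*, which encodes a zinc-finger protein, was at 9.41, 9.38 and 9.62 in *EP1306* and at 10.86, 10.93 and 10.93 in controls (difference -1.43 ± 0.08, adjusted p = 0.000123). Both calls were made in all 9 fits that left out 1 array. The lists of 24 neuronal genes and 19 glial genes had no call, with medians of -0.13 and -0.09. At an unadjusted p below 0.05, the mutant had the lower level in 6 neuronal and 8 glial genes, and in 7.44% of all genes.

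Further falls included proteins of the cuticle and of hormone transport. *Osi2*, of the Osiris family, was at 5.21, 5.22 and 5.30 in *EP1306* and at 6.80, 6.68 and 6.32 in controls (difference -1.36). *Cpr76Bd*, a chitin-binding cuticle protein, was at 7.67, 7.94 and 7.85 in *EP1306* and at 8.93, 8.69 and 8.86 in controls (difference -1.003). The cuticle list had 3 of 113 genes lower and 0 higher (2.65% called, against 1.38% of all genes), with a median of -0.01. The other two were *Cpr49Ag* (-0.52) and *Cpr49Ae* (-0.40), which kept their calls in 7 and 2 of the 9 leave-one-out fits (adjusted p up to 0.0525 and 0.128), and both lost them without control replicate 2 or *EP1306* replicate 2. *Jhbp1* and *Jhbp7*, named for juvenile hormone binding, fell by 0.73 ± 0.07 and 0.86 ± 0.10 on the log2 scale. *pio*, a zona pellucida protein of the apical matrix, fell by 0.36 ± 0.04. *Ugt35B1*, a UDP-glycosyltransferase, was at 8.01, 7.60 and 7.65 in *EP1306* and at 9.37, 9.24 and 9.02 in controls (difference -1.46). *Asph*, which encodes an aspartyl beta-hydroxylase, fell on both of its called probe sets, by 1.03 and 0.46. *CG13046* (-1.40), *CG13067* (-1.15), *CG8768* (-1.12), *CG14715* (-1.04) and *CG3857* (-1.02) also fell by more than 2-fold. Apart from *Cpr49Ag* and *Cpr49Ae*, the calls of the genes named here were made in all 9 fits that left out 1 array. Falls over 2-fold that depended on single arrays were *AOX1*, an aldehyde oxidase, *CG12171* and *CG2993*. *AOX1* was at 7.66, 7.51 and 7.75 in *EP1306* and at 9.37, 8.79 and 8.52 in controls (difference -1.25, adjusted p = 0.0235), and *CG12171* had a difference of -1.23 (adjusted p = 0.0247). Both kept the call in 4 of the 9 fits, and lost it without any of the *EP1306* arrays, without control replicate 2 and without *BxJ* replicate 2 (adjusted p up to 0.0962 and 0.0981). *CG2993* (-1.02, adjusted p = 0.0279) kept it in 2 of the 9, without *BxJ* replicate 3 or control replicate 1.

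**Figure D2:**
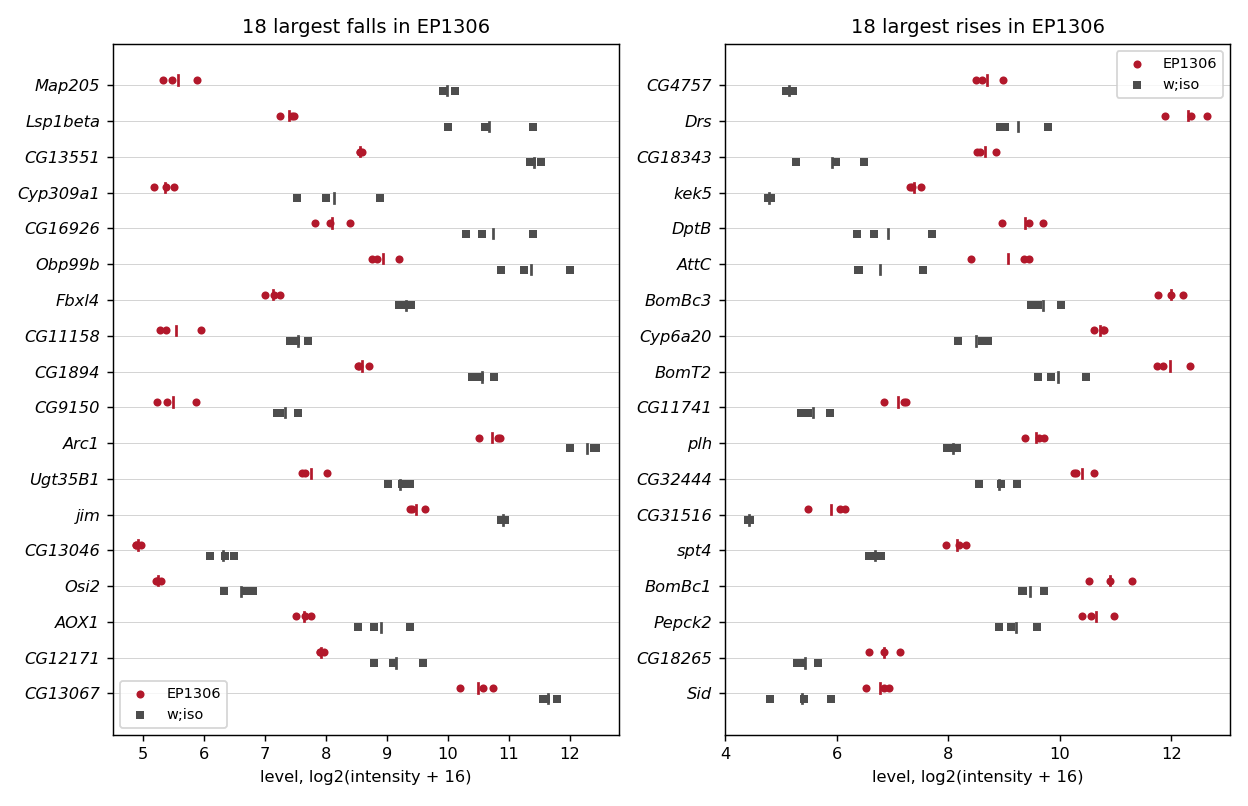
Levels on each array (x axis, log2 of the intensity plus 16) for the 18 called genes that fell most (left) and the 18 that rose most (right), *EP1306* as red circles above *w;iso* as grey squares, with a vertical tick at each mean. No gene shown has overlapping groups. In *Lsp1beta*, *Cyp309a1*, *CG16926* and *Obp99b* the control squares are spread more widely than the mutant circles.

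Among the rises, *CG4757* led. It was at 8.99, 8.50 and 8.60 in *EP1306* and at 5.14, 5.22 and 5.08 in controls (difference 3.55 ± 0.17, 11.7-fold higher, adjusted p = 5.43e-05). *kek5*, which encodes a Kekkon-family transmembrane protein with leucine-rich repeats and an immunoglobulin domain, was at 7.31, 7.34 and 7.51 in *EP1306* and at 4.78, 4.81 and 4.77 in controls (difference 2.60 ± 0.10, adjusted p = 1.58e-05). The control levels of both genes were close to the medians of the control arrays (4.997 to 5.051), while the mutant levels were more than 2 units above them. *kek5* lies on the X chromosome, 0.78 Mb from *Bx*. *CG18343* was at 8.86, 8.52 and 8.57 in *EP1306* and at 6.49, 5.99 and 5.26 in controls (difference 2.73 ± 0.28, adjusted p = 0.0036). Its neighbour on chromosome arm 2R, *SkpB*, a member of the Skp family of ubiquitin ligase subunits, was at 9.76, 9.72 and 9.76 in *EP1306* and at 8.58, 8.47 and 8.60 in controls (difference 1.20 ± 0.07).

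Several of the rises were enzymes. *Cyp6a20*, a cytochrome P450 known in flies for its link to male aggression, was at 10.62, 10.80 and 10.77 in *EP1306* and at 8.72, 8.60 and 8.18 in controls (difference 2.23 ± 0.13, 4.71-fold higher, adjusted p = 0.000137). *Prx6c*, a peroxiredoxin, was at 8.96, 8.70 and 8.86 in *EP1306* and at 7.64, 7.72 and 7.39 in controls (difference 1.25 ± 0.11). *Pfas*, an enzyme of purine synthesis, was at 8.45, 8.28 and 8.42 in *EP1306* and at 7.51, 7.06 and 7.03 in controls (difference 1.18 ± 0.13). No groups overlapped in these genes. *AcCoAS*, which makes acetyl-CoA from acetate, rose less, by 0.39 ± 0.05. *plh* (difference 1.48) and *spt4*, which encodes a transcription elongation factor subunit (1.47), rose in *EP1306* and averaged 8.12 and 6.83 in *BxJ*. All of these, and the rises of *CG11741* (1.52), *CG32444* (1.48), *CG31516* (1.47) and *CG18265* (1.42), were called in each of the 9 leave-one-out fits. *Pepck2*, a phosphoenolpyruvate carboxykinase of glucose synthesis, rose by 1.43 ± 0.20, and lost its call without *EP1306* replicate 2 or control replicate 2 (adjusted p = 0.0539 and 0.0656). *Sid*, a stress-induced DNase, averaged 6.77 ± 0.214 in *EP1306* and 5.37 ± 0.545 in controls (SD, n = 3 each, limma difference 1.40, adjusted p = 0.0483), and its call was kept in 1 of the 9 fits, that without control replicate 1 (adjusted p up to 0.167). Of 83 cytochrome P450 genes, 2 were higher and 3 lower (6.02% called, against 1.38% of all genes), with a median of -0.01. The higher ones were *Cyp6a20* and *Cyp4s3* (difference 0.85, adjusted p = 0.0478), and the lower ones were *Cyp309a1*, *Cyp6d2* (-1.01, adjusted p = 0.0349) and *Cyp4p1* (-0.77, adjusted p = 0.0302). The calls of *Cyp4s3*, *Cyp6d2* and *Cyp4p1* were each made in 2 of the 9 leave-one-out fits, with adjusted p up to 0.157, 0.122 and 0.113, and control replicate 2 and *EP1306* replicate 1 were among the arrays without which each was lost.

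Peptides of the humoral immune response formed the group with the most called members. Bomanins and baramicins are short peptides that the fat body secretes in response to Toll signalling, and the list also holds the daisho peptide *Dso1*. Of 13 such genes measured, 9 were higher and 0 lower in *EP1306* (69.2% called, against 0.541% of all genes called higher), and their median difference was 1.16, against -0.0082 over all genes. All 13 differences were above 0, 12 of them at an unadjusted p below 0.05 (4.37% of all genes). The mean level of the list was 11.86, 11.46 and 11.54 in *EP1306* and 10.75, 10.43 and 10.23 in controls, so every mutant array lay above every control array. *BomBc3* was at 12.21, 11.77 and 12.001 in *EP1306* and at 10.03, 9.61 and 9.48 in controls (difference 2.29 ± 0.17, 4.88-fold higher, adjusted p = 0.000698). *BomS5* was at 12.30, 11.91 and 12.05 in *EP1306* and at 10.90, 10.70 and 10.47 in controls (difference 1.40 ± 0.13, adjusted p = 0.00246). *BomS2* was at 12.42, 12.30 and 12.18 in *EP1306* and at 11.53, 11.20 and 11.23 in controls (difference 0.98 ± 0.10, adjusted p = 0.00334). These 3 were called in all 9 fits that left out 1 array. *BomT2* (2.01) and *Dso1* (1.26) lost the call, among these fits, only without control replicate 2 (adjusted p = 0.0504 and 0.0526). *BomBc1* (1.45, 5 of 9 fits), *BomS1* (1.20, 3 of 9), the brighter probe set of *BaraA2* (1.16, 2 of 9) and *BomT3* (0.98, 1 of 9) lost it without more of the arrays, with adjusted p up to 0.0882, 0.0915, 0.12 and 0.129. The count of called members was 3 without control replicate 2 and 11 without control replicate 1, and the median stayed between 0.99 and 1.30 over the 9 fits. With the spike-in level as a covariate the median was 0.79 and 1 member was called, and without the 2 arrays rich in accessory gland RNA the median was 0.98 and 2 were called.

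The uncalled members were *BomBc2* (difference 0.82, adjusted p = 0.0714), *BomS6* (0.73, adjusted p = 0.0682), *BomS4* (0.65, adjusted p = 0.17) and *BaraB*, which was at the floor in both genotypes. *BomBc1*, *BomS1*, *BomS2*, *BomT2* and *BomS5* lie in 1 cluster on chromosome arm 2R, and *BomT3* and *BomBc3* lie side by side on 3R, so genes of the 2 clusters rose. Sequences of these short genes are alike, and probe sets may take signal from a neighbour in the family. *Bbd*, bombardier, which flies need for the function of the short bomanins, rose as well (difference 1.34 ± 0.14, adjusted p = 0.00382), and it was called in all 9 leave-one-out fits.

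The classical antimicrobial peptides were split. Of 16 measured, 3 were higher and 0 lower (18.8% called, against 1.38% of all genes), with a median of 0.15. *Drs*, the antifungal peptide drosomycin, was at 12.65, 11.88 and 12.36 in *EP1306* and at 9.79, 8.93 and 9.01 in controls (difference 3.05 ± 0.27, 8.31-fold higher, adjusted p = 0.00185). It was called in all 9 fits that left out 1 array, and not with the spike-in level as a covariate (difference 2.40, adjusted p = 0.0567). No antimicrobial peptide was called with that covariate, and 1 was without the 2 arrays rich in accessory gland RNA. *DptB*, the antibacterial diptericin B, was at 9.70, 8.97 and 9.44 in *EP1306* and at 7.70, 6.66 and 6.37 in controls (difference 2.46 ± 0.36, adjusted p = 0.0178). *AttC*, an attacin, was at 9.45, 8.40 and 9.36 in *EP1306* and at 7.54, 6.40 and 6.38 in controls (difference 2.30 ± 0.40, adjusted p = 0.0381). Neither gene's groups overlapped, but *DptB* lost its call without *EP1306* replicate 1 or 3 or control replicate 2 or 3 (adjusted p up to 0.079), and *AttC* kept it only without *EP1306* replicate 2 or control replicate 1 (adjusted p up to 0.144). *Mtk*, metchnikowin, was at 11.58, 11.04 and 11.48 in *EP1306* and at 10.69, 10.24 and 9.37 in controls, a difference of 1.27 that did not pass (adjusted p = 0.192). *AttB* (0.87) and *AttA* (0.67) did not pass either, and *Drsl4* ran the other way (-0.34, adjusted p = 0.482). *CecB* and 4 of the drosomycin-like genes were near the floor in both genotypes.

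**Figure D3:**
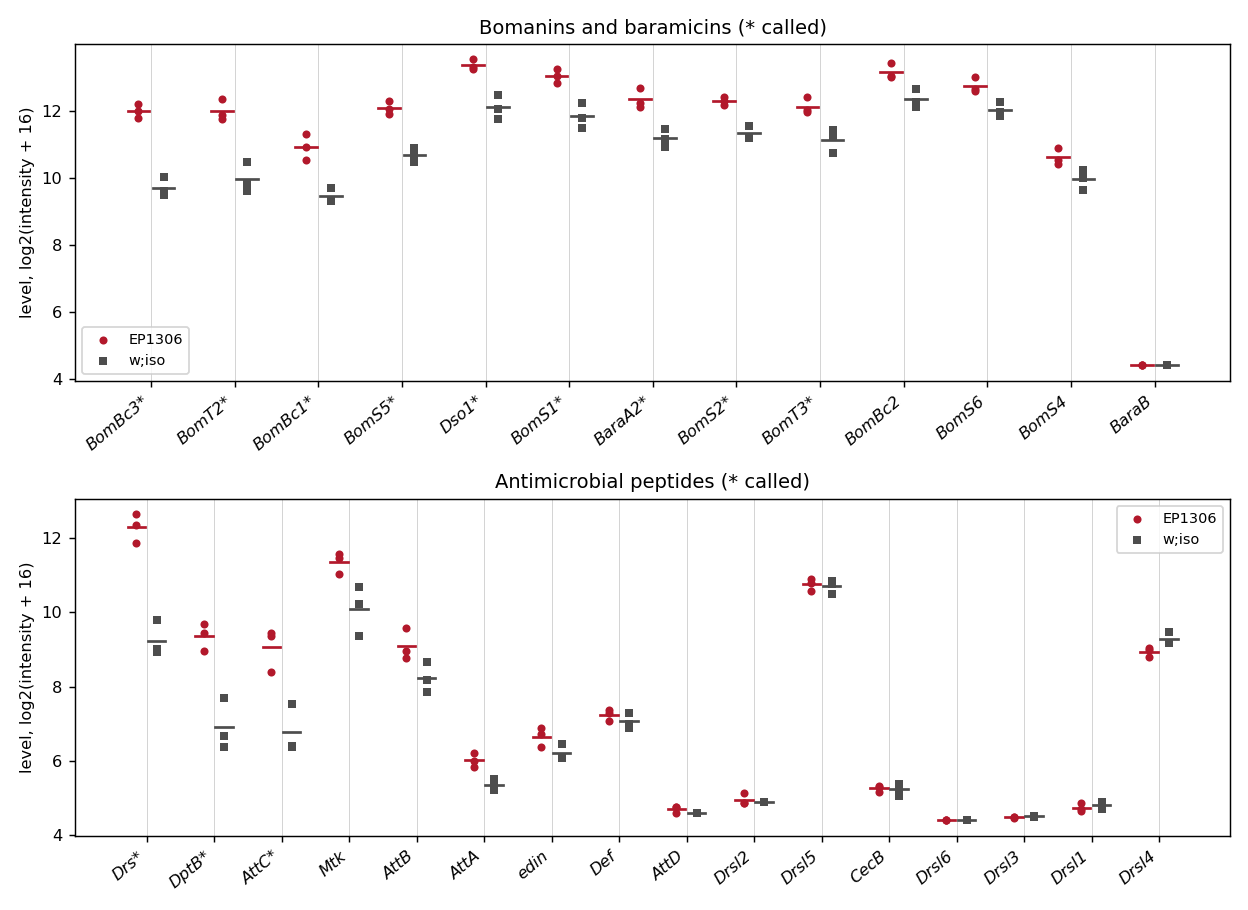
Level on each array (y axis, log2 of the intensity plus 16) for 13 bomanins and baramicins (top) and 16 antimicrobial peptides (bottom), *EP1306* as red circles left of *w;iso* as grey squares, with a bar at each mean and an asterisk at each called gene. Of the bomanins and baramicins, 12 have no overlap between groups, against 14.6% of all genes, and *BaraB* sits at the floor in both genotypes.

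Other immune lists gave no call. None of 9 peptidoglycan recognition and Gram-negative binding proteins was called (median 0.03, with 2 higher at an unadjusted p below 0.05), and none of 21 genes of Toll and Imd signalling was called (median 0.03, with 2 higher and 2 lower). The JAK-STAT and Turandot list of 11 genes and the list of 11 melanization and thioester proteins also had no call (1 higher and 1 lower, and 1 higher and 4 lower, at an unadjusted p below 0.05). For these 4 lists, the shares over all genes at that threshold were 4.37% higher and 7.44% lower. *Tsf1*, the secreted iron carrier transferrin, was at 13.18, 13.02 and 13.04 in *EP1306* and at 12.36, 12.16 and 12.16 in controls (difference 0.85 ± 0.07, 1.8-fold higher, adjusted p = 0.00161). It was the only called gene of 12 in the iron-handling list (8.33%, against 1.38% of all genes). *Tsf1* lies on the X chromosome, 0.13 Mb from *Bx*.

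Immune peptides gave no call between *EP1306* and the gain-of-function allele. None of the 13 bomanins and baramicins and none of the 16 antimicrobial peptides passed the test of *EP1306* minus *BxJ*. The mean level of the first list was 11.62 in *EP1306* and 11.23 in *BxJ*, with 12 genes higher and 1 lower in *EP1306*, and that of the second was 7.46 in *EP1306* and 7.75 in *BxJ*, with 5 higher and 11 lower, against 10.47 and 6.77 in controls. *Drs* averaged 12.29 ± 0.39 in *EP1306* and 12.21 ± 0.27 in *BxJ* (SD, n = 3 each), with an *EP1306* minus *BxJ* difference of 0.09 (adjusted p = 0.919). *DptB* averaged 9.37 in *EP1306* and 10.58 in *BxJ* (difference -1.21, adjusted p = 0.253). *kek5* averaged 7.39 in *EP1306* and 7.25 in *BxJ* (difference 0.13, adjusted p = 0.74), and *Tsf1* averaged 13.08 in *EP1306* and 12.99 in *BxJ* (difference 0.09, adjusted p = 0.749). In contrast, *CG13551*, *Fbxl4*, *jim*, *Arc1* and *CG1894* were lower in *EP1306* than in *BxJ*, with log2 differences of -2.85, -1.70, -1.79, -1.58 and -1.61. *CG4757* (difference 3.21), *Cyp6a20* (2.13) and *plh* (1.45) were higher in *EP1306* than in *BxJ*. In all, 45 of the 85 called rises and 72 of the 129 called falls also passed the test of *EP1306* minus *BxJ* in the same direction. That comparison uses the same *EP1306* arrays on which the calls were selected, so these counts are no independent support. The share of all probe sets that passed it is not given here. A p-value that misses the threshold does not show that the 2 alleles act alike.

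A few muscle genes fell in *EP1306*. Of 22 measured, 3 were lower and 0 higher (13.6% called, against 0.841% of all genes called lower), with a median of -0.13, and 12 were lower at an unadjusted p below 0.05 (7.44% of all genes). *Mlp84B*, a muscle LIM protein of the Z disc, was at 11.93, 12.01 and 12.05 in *EP1306* and at 12.71, 12.70 and 12.82 in controls (difference -0.74 ± 0.05, adjusted p = 0.000698). *Act88F*, the actin of indirect flight muscle, was at 11.27, 11.29 and 11.41 in *EP1306* and at 12.06, 12.18 and 12.20 in controls (difference -0.82 ± 0.09, adjusted p = 0.00382). Both were called in all 9 fits that left out 1 array. *Act88F* was not called with the spike-in level as a covariate (-0.69, adjusted p = 0.14) or without the 2 arrays rich in accessory gland RNA (-0.78, adjusted p = 0.0798), and under each of these 1 gene of the list was called. *TpnC73F*, a troponin C, was at 7.21, 7.21 and 7.04 in *EP1306* and at 8.31, 7.95 and 7.91 in controls (difference -0.90, adjusted p = 0.0282), and the call was kept in 3 of those fits (adjusted p up to 0.108). It was lost without any of the *EP1306* arrays, without control replicate 2 or 3 and without *BxJ* replicate 3. *Prm*, paramyosin, was called lower on 1 probe set (-0.28, adjusted p = 0.0296) and not on its brighter one (-0.11, adjusted p = 0.49). *fln* and *TpnC4* ran the other way only through *EP1306* replicate 3 (8.39 and 7.04), and without that array the list had 2 calls and a median of -0.12. In bulk RNA, fewer cells of a type and less RNA per cell cannot be told apart.

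Subunits of the proteasome, which degrades ubiquitin-tagged proteins, shared a small shift. Of 26 measured, 1 was called lower and 0 higher (3.85% called, against 1.38% of all genes). Yet all 26 differences were below 0, against 60.1% of all genes. At an unadjusted p below 0.05, 19 of the 26 were lower (7.44% of all genes) and 0 higher, and the median was -0.23. The mean level of the list was 10.76, 10.65 and 10.54 in *EP1306* and 10.92, 10.79 and 10.90 in controls, so the groups did not overlap but *EP1306* replicate 1 and control replicate 2 were 0.03 apart. *Prosbeta7*, a core subunit, was at 10.77, 10.61 and 10.57 in *EP1306* and at 11.002, 10.96 and 11.13 in controls (difference -0.38 ± 0.07, adjusted p = 0.0428). Its call was kept only without *EP1306* replicate 1 (adjusted p up to 0.145 without another array). Subunits of the lid and base had differences of like size, with *Rpt4* at -0.30 (adjusted p = 0.0739), *Rpn8* at -0.28 (adjusted p = 0.164) and *Rpn11* at -0.30 (adjusted p = 0.187), none of which passed. The median was -0.18 without *EP1306* replicate 3, -0.29 without *EP1306* replicate 1 and -0.15 with the spike-in level as a covariate. *Prosbeta7* lies beside the called gene *CG1161*, and probe sets of overlapping genes could share signal. The other housekeeping lists did not share the shift, with medians of 0.0046 over 34 cytosolic ribosomal proteins, -0.002 over 71 mitochondrial ribosomal proteins and -0.0097 over 69 respiratory chain and ATP synthase genes. Among them *mRpL41* was called higher (0.46, adjusted p = 0.0482) and *UQCR-11*, a subunit of complex III, lower (-0.47, adjusted p = 0.0386). These calls were kept in 0 and 1 of the 9 leave-one-out fits (adjusted p up to 0.157 and 0.141). Each was the only call of its list (1.41% and 1.45% called, against 1.38% of all genes).

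**Figure D4:**
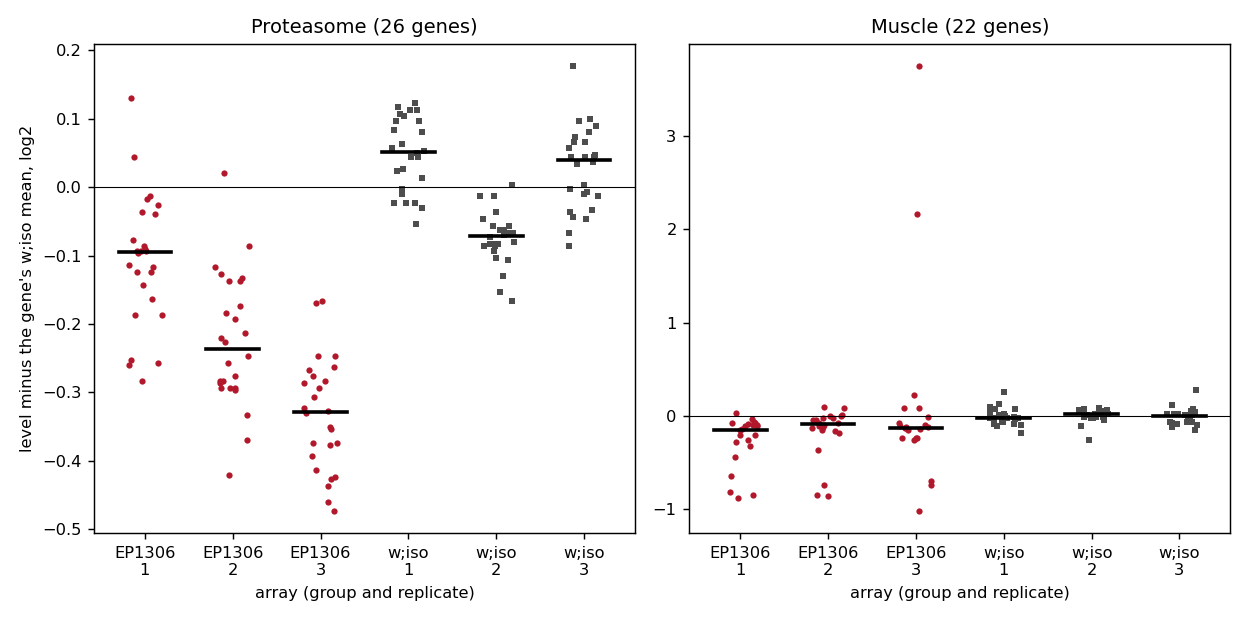
Level of each gene minus its own *w;iso* mean (y axis, log2) on each array (x axis), for 26 proteasome genes (left) and 22 muscle genes (right), *EP1306* in red and *w;iso* in grey, with a bar at each array's median. The y axes differ between panels. Nearly all proteasome points of the *EP1306* arrays lie below 0, and the pair of muscle points far above 0 in *EP1306* replicate 3 are *fln* and *TpnC4*.

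Among secreted signals, 2 of the insulin-like peptides fell. *Ilp3* was at 8.39, 8.41 and 8.67 in *EP1306* and at 9.20, 9.08 and 9.11 in controls (difference -0.64 ± 0.10, adjusted p = 0.0294). *Ilp5* was at 8.58, 8.72 and 8.89 in *EP1306* and at 9.49, 9.34 and 9.20 in controls (difference -0.61 ± 0.10, adjusted p = 0.0292). The brain's insulin-producing cells make both. *Ilp2*, made by the same cells, was at 8.99, 8.91 and 9.06 in *EP1306* and at 9.26, 9.31 and 9.31 in controls, a difference of -0.31 that did not pass (adjusted p = 0.123). No groups overlapped in the 3 genes, which held for every called probe set and for 14.6% of all genes. The calls of *Ilp3* and *Ilp5* were each kept in 3 of the 9 leave-one-out fits (adjusted p up to 0.113 and 0.107), and both were lost without *EP1306* replicate 1 or 2 or control replicate 1 or 2. The other 24 of 26 neuropeptide genes were not called (7.69% called, against 1.38% of all genes). *InR*, *chico* and *foxo*, which act downstream of the insulin-like peptides, were not called either (differences 0.07, 0.07 and -0.34).

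A few members of other lists were called, and the share called over all genes was 1.38%. *MsrA*, a methionine sulfoxide reductase known as an ecdysone-induced gene, was the only call among 16 genes of juvenile hormone and ecdysone (0.58, adjusted p = 0.014, 6.25% called), and it was kept in 7 of the 9 leave-one-out fits, lost without *EP1306* replicate 3 or control replicate 2. Of 49 midgut and digestive genes (4.08% called), *Mal-B2*, a maltase, was higher (0.76, adjusted p = 0.0251). *Npc2b*, of the NPC2 family of sterol-binding proteins, was lower (-0.26, adjusted p = 0.038). These calls were kept in 4 and 1 of the 9 fits. *CG7829* was the only call among 44 serine proteases and serpins (2.27% called). It was lower on both of its probe sets (-0.91 and -0.82), which kept the call in 6 and 2 of the 9 fits. Among 69 glutathione and UDP-glycosyl transferases (2.9% called), *Ugt36E1* was the other lower gene, beside *Ugt35B1*. Its difference was -0.89 (adjusted p = 0.046), and its call was kept in 1 of the 9 fits.

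In the odorant-binding protein family, 3 of 48 genes were lower and 0 higher (6.25% called, against 1.38% of all genes). The median was -0.01. Besides *Obp99b*, these were *Obp56e* (difference -0.57, adjusted p = 0.0145) and *Obp44a* (-0.37, adjusted p = 0.0175). *Obp44a* was among the brightest genes, at 13.94, 13.83 and 13.79 in *EP1306* and at 14.23, 14.23 and 14.22 in controls. Both calls were lost without *EP1306* replicate 2 or 3 or control replicate 2, and that of *Obp44a* also without control replicate 3 (adjusted p up to 0.069 and 0.077). None of 166 odorant, gustatory and ionotropic receptors was called (0 higher and 2 lower at an unadjusted p below 0.05, against 4.37% and 7.44% of all genes).

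Among genes tied to ethanol and behavior, 1 was called on its brightest probe set. Of 25 genes of the ethanol behavior list, *scb* was lower and the other 24 were not called (4% called, against 1.38% of all genes). This gene encodes an integrin alpha subunit known in flies for its role in ethanol tolerance and memory. It was at 7.27, 7.65 and 7.69 in *EP1306* and at 8.33, 8.34 and 8.47 in controls (difference -0.85 ± 0.14, adjusted p = 0.0288), and the call was kept only without *BxJ* replicate 1 or 2 (adjusted p up to 0.103). On its brightest probe set, no gene was called among 8 of ethanol metabolism, 17 of circadian rhythm, 24 of monoamine synthesis, transport and reception, 19 of photoreceptors, 19 of eye pigment and 13 of heat shock. At an unadjusted p below 0.05 these lists had 2, 2, 0, 0, 2 and 0 genes higher and 3, 2, 2, 2, 1 and 3 lower in *EP1306*. The shares over all genes were 4.37% higher and 7.44% lower, and the lists are short. On dimmer probe sets, *Gpdh1*, a glycerol-3-phosphate dehydrogenase of the ethanol metabolism list, was called lower (-0.31, adjusted p = 0.0288, kept in 1 of the 9 leave-one-out fits), and *Galphaq*, the G protein of phototransduction, was called higher. That probe set of *Galphaq* was at 9.42, 9.48 and 9.81 in *EP1306* and at 8.78, 8.64 and 8.55 in controls (difference 0.91 ± 0.13, adjusted p = 0.0143). The call was lost without *EP1306* replicate 2 or control replicate 2 or 3 (adjusted p up to 0.0656), and the brightest probe set of the gene had a difference of -0.0068 (adjusted p = 0.976). No gene was called among 35 of the male accessory gland and 27 of the testis, and none of either list was below an unadjusted p of 0.05, with accessory gland signal high in 1 array of each genotype.

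**Figure D5:**
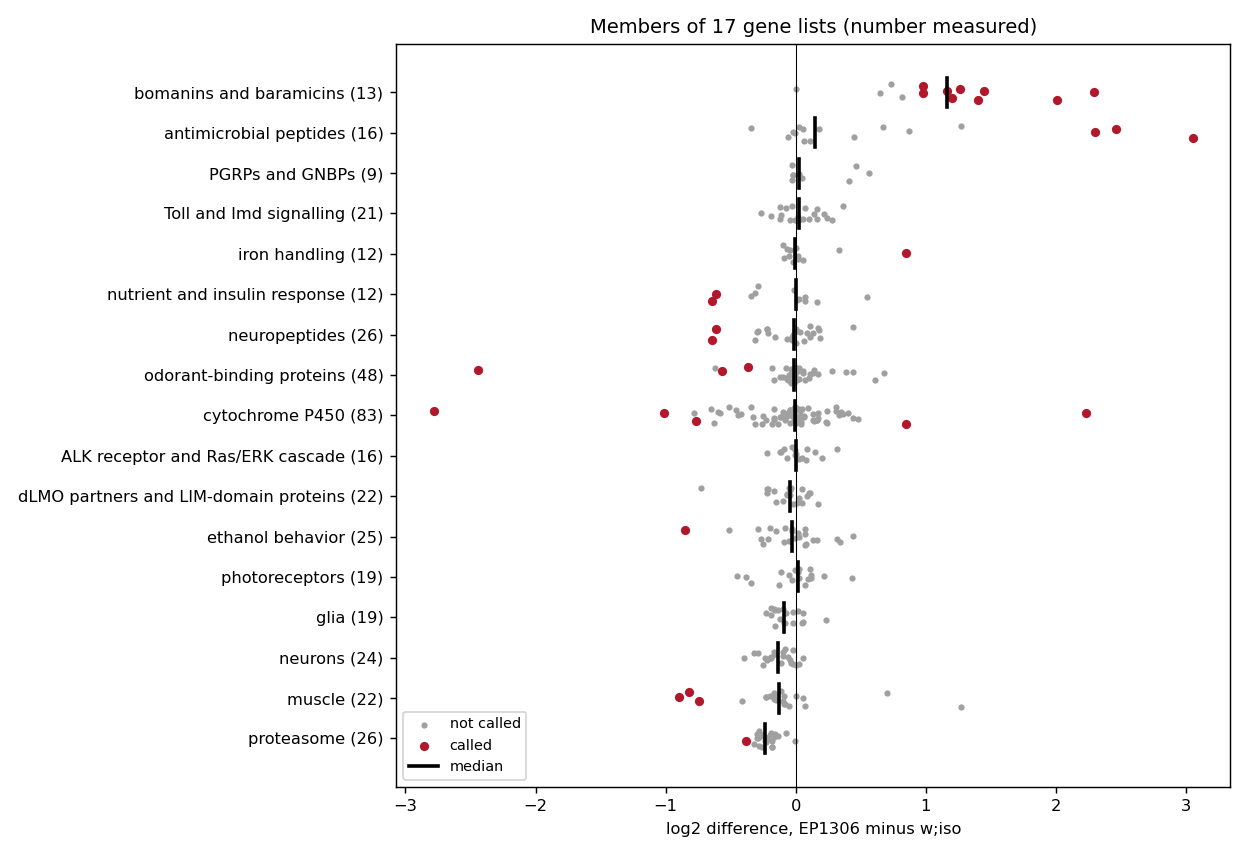
Difference between *EP1306* and *w;iso* (x axis, log2) for the members of 17 gene lists (rows, number measured in brackets). Red points are called genes, grey points are not called and black bars are medians. The median of the bomanins and baramicins is 1.16 and that of the proteasome is -0.23, and the others lie between -0.13 and 0.15.

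By chromosome, a smaller share of genes was called on the X chromosome, which carries *Bx*, than on the large autosomes, a difference that was not tested. On X, 15 of 1877 genes were called (0.799%), 4 higher and 11 lower, against 61 higher and 90 lower among 9977 genes of chromosomes 2 and 3 (1.51%). None of 65 genes on chromosome 4 was called. Within 2 Mb of *Bx*, 2 of 383 genes were called (0.522%), *kek5* and *Tsf1*, both higher, against 0.87% of the other X genes. The order depended on the window. Within 1 Mb the share was 1.08%, against 0.769% outside. Within 4 Mb, 3 of 644 genes were higher and 4 lower (1.09%), against 0.649% outside. *Fbxl4* and *CG11158*, the largest called falls on X, lay just beyond 4 Mb. Whether sequence near the allele differs between the groups was not tested. Some called genes lay close together, and how many would by chance was not tested. Of the 175 called genes with a chromosome, 25 were within 10 kb of another, forming 20 pairs, of which 11 were pairs of bomanins. Of the other 9 pairs, 7 moved the same way. These included *CG11158* with *Nna1* (both lower), *Cpr49Ae* with *Cpr49Ag* (both lower) and *CG7299* with *CG7296* (both lower). *CG4757*, the largest rise, lies beside *Ugt35B1*, which fell. Among called probe sets without a gene, 5 that the study's supplementary annotation lists as a transposon were higher and 9 were lower, with differences between -2.20 and 1.12, and that annotation covers only probe sets the study selected on these arrays.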

How the data were processed

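RNA from heads of adult males was measured with Affymetrix Drosophila 2.0 arrays (3 per genotype). Per the labels, the authors processed the arrays with MAS5 (no version given) and deposited linear intensities, 1 for each of 18952 probe sets, from 2.83 to 47416. Scaling and genome build are not given in the sources used here. After removal of 183 control probe sets, values were log2(intensity + 16), without scaling, and array medians lay within 0.0818 of each other. All 9 arrays (3 genotypes) were fitted with limma 3.58.1 in R 4.3.3 (lmFit, contrasts.fit, eBayes with trend, 2.24 prior degrees of freedom), with Benjamini-Hochberg adjustment over 18769 probe sets. The number of arrays limits the precision.

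Names come from the platform annotation and, where it lists none, from the names alone of the study's supplementary table. The fold and p-value columns of that table are the authors' comparisons and were not used. Chromosomes and neighbours come from a RefSeq gene table. Lists take the brightest probe set of each gene.

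Members and lists were chosen with earlier results of these data known. Named are *Bx*, *Alk*, *jeb*, the 20 largest called rises and falls without overlap, called list members, and the genes next to the threshold. The rule also took up to 3 list members of smallest p, of which those not called are named only in part. The rest were picked with their values in view. *w* and array probe sequences were not analysed here. Alternatives were pseudocounts of 1 and 64, quantile normalization, median centring, a filter (intensity of at least 32 on 3 arrays), no trend, a replicate block, a fit of 6 arrays, a spike-in covariate, the methods' t-test and leaving out each array. Leaving out the 2 gland-rich arrays was chosen after seeing the data.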

Additional observations from a re-analysis of the deposited data

How the results depend on the processing

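Of 214 calls (85 higher, 129 lower), the totals moved by over 1.5 times in either direction. A filter on low values gave 401 (152 higher, 249 lower), the fit of 6 arrays 88 (38 and 50), the spike-in covariate 36 (7 and 29) and leaving out the 2 arrays rich in accessory gland RNA 61 (30 and 31). The methods' t-test gave 1199 (409 and 790) at their threshold and 11 (6 and 5) after Benjamini-Hochberg. Leaving out 1 array gave 103 to 247 (the lowest without *w;iso* replicate 2, the highest without replicate 1 of the controls), with 37 to 113 higher and 55 to 134 lower. Quantile normalization gave 127 higher and 115 lower, and median centring 96 and 114, so the split between directions depends on scaling. Called list members, 41 in all, numbered 17 in the fit of 6 arrays, 8 with the spike-in covariate, 9 without the gland-rich arrays and 15 to 41 when 1 array was left out. The cause of these shifts was not tested, beyond the smaller number of arrays where arrays were left out.

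Of the 178 called probe sets with 1 gene, 175 and 162 kept the call with a pseudocount of 1 and 64, 155 with quantile normalization, 159 with median centring, 151 without the trend, 71 in the fit of 6 arrays, 27 with the spike-in covariate, 43 without the gland-rich arrays and 9 with the methods' t-test. Replicate numbers were treated as unpaired, since same-numbered *EP1306* and *w;iso* arrays deviated together with correlations of -0.12, -0.18 and 0.16. With the replicate number as a block, 256 probe sets were called, 129 higher and 127 lower, and 142 of the 178 kept the call. *EP1306* replicates 1, 2 and 3 correlated best with *w;iso* replicates 2, 3 and 1. Of the 85 rises, 19 had a *w;iso* mean level under 6, near the dim end of the scale, where adding 16 understates a fold. *Bx* was not called on either probe set under any alternative. Among the called probe sets with 1 gene, *Bx*, *Alk* and *jeb*, no direction reversed under the alternatives run. Other named genes that were not called were not followed through the alternatives.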
